A study of Mus musculus with 6 samples.

Results

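The expression of *Lifr* and of the IL-6 family receptor pathway was examined in bone marrow megakaryocytes (MKs), the cells that release platelets. The group has 10 genes, chosen by name from the 16579 genes of the deposited table, and all 10 were found. They are the receptor chains *Lifr*, *Il6st*, *Il6ra* and *Osmr*, the ligand *Osm*, the kinases *Jak1*, *Jak2* and *Tyk2*, the transcription factor *Stat3* and the inhibitor *Socs3*. The group was selected on the difference of *Lifr* between the genotypes in these same libraries, so the genotype values of *Lifr* are given as a description with no test, and the other genes were added for their place in the pathway. RNA was measured in 6 libraries of marrow MKs from mice aged 3 months, 3 from mice labelled Becn1f/f and 3 from mice labelled Becn1f/f;Pf4-iCre. Every mouse carries the floxed *Becn1* allele, and only the latter carry iCre, a Cre recombinase driven by regulatory sequence of *Pf4* (platelet factor 4) and meant to delete *Becn1* in the megakaryocytic lineage. The sex of these mice, the pooling of animals and the gate by which these MKs were isolated are not given in the sources used here.

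LIF, IL-6, oncostatin M and related cytokines share gp130, the signal-transducing chain encoded by *Il6st*. Each ligand joins gp130 with a partner chain, which is Lifr for LIF, Il6ra for IL-6, and Osmr or, depending on the species and ligand, Lifr for oncostatin M. Janus kinases bound to gp130 phosphorylate Stat3, which enters the nucleus and induces its own feedback inhibitor Socs3. In the bone marrow, IL-6 family cytokines act on hematopoietic progenitors, MKs, macrophages and stromal cells, and through osteoblasts and osteoclasts on bone.

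Total estimated counts lay between 16467560 and 17156728 per library. The targeted gene, *Becn1*, was measured at 127.5, 108.8 and 118.7 CPM (counts scaled to the effective library size) in the Becn1f/f libraries and at 106.4, 104.4 and 109.8 in the libraries labelled Becn1f/f;Pf4-iCre, or 90.3% of the Becn1f/f mean, with overlap between the groups (adjusted p = 0.94 from the edgeR test described with *Il6ra*). The transcript level therefore did not check the labels, and the genotype is named as labelled throughout. Of the 20 markers of MKs and platelets, several were low, with *Pf4* at 4.87 ± 1.62 CPM, *Ppbp* at 5.54 ± 4.18 and *Gp9* at 1.55 ± 0.369 in Becn1f/f libraries (SD, n = 3), whereas the granulocyte gene *Mpo* was at 3670 ± 434 and the macrophage receptor *Csf1r* at 431 ± 60.5 (SD, n = 3). Other markers of the list were well expressed, with *Itga2b*, which encodes the MK surface antigen CD41, at 173 ± 21.9 CPM, *Itgb3* at 114 ± 31.9, *Nbeal2* at 362 ± 87.6, *Nfe2* at 134 ± 17.5, *Fli1* at 102 ± 4.15 and *Thbs1* at 2862 ± 1395 in Becn1f/f libraries (SD, n = 3). In bulk RNA, fewer cells of a type and less RNA per cell cannot be told apart.

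The sequence before the start of transcription was taken from RefSeq for the receptor gene that differed most between the genotypes, for its neighbor *Osmr*, which was almost silent, and for the feedback gene *Socs3*. RefSeq entries matched 9 of the 10 genes and give *Lifr* a pair of start sites on chromosome 15. Each line shows the 250 bases before the start, 5′ to 3′ on the strand of the gene, and capitals mark the motif TTCNNNGAA, to which STAT proteins are known to bind. The positions are those of GRCm38.p6, whereas the labels name GRCm39 for the deposited table, and counts summed over a gene do not separate start sites.
Lifr, start site 1, chr15:7129322-7129571, plus strand: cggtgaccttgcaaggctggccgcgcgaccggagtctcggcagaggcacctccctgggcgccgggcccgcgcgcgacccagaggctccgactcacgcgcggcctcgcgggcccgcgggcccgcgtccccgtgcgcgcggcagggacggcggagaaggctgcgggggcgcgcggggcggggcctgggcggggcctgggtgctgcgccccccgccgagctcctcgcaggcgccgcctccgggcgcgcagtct
Lifr, start site 2, chr15:7140292-7140541, plus strand: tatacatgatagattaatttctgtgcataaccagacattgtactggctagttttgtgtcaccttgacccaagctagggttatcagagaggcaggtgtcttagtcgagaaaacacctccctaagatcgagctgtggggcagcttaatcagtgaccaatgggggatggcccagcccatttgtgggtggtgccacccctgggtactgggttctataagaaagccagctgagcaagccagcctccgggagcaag
Osmr, chr15:6874314-6874563, minus strand: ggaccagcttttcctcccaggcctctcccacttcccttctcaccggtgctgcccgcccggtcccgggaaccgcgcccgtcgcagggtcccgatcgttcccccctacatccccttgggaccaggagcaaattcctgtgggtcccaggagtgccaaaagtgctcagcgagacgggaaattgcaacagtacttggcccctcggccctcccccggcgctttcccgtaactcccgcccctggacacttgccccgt
Socs3, chr11:117969367-117969616, minus strand: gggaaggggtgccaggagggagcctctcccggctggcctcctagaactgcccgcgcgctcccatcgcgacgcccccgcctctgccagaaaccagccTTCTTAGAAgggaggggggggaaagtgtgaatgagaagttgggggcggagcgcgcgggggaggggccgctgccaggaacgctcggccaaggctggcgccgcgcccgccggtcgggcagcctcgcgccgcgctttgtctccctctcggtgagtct

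The upstream *Lifr* start lies in sequence with 82.4% G and C and 43 CpG dinucleotides, and the downstream one in sequence with 50.8% G and C and 3 CpG dinucleotides. *Osmr* has 66.0% G and C with 18 CpG dinucleotides. The motif reads the same on both strands and occurred once, in *Socs3*, where it begins 154 bases before the start. It was found in none of the other 9 windows of the group, and the same motif with a spacer of 4 bases was found in none of the 10. Of 32851 RefSeq windows of the same length, 7.02% held the former and 5.85% the latter. A match describes the letters of the window and is not evidence of binding.

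*Lifr* (gene ID 16880) encodes the LIF receptor chain. It was measured at 24.6, 29.2 and 34.4 CPM in the Becn1f/f libraries and at 56.5, 78.8 and 70.7 CPM in those labelled Becn1f/f;Pf4-iCre. The lowest library of the latter genotype lay above the highest Becn1f/f library. The means were 29.4 ± 4.90 and 68.7 ± 11.3 CPM (SD, n = 3 each), which makes 2.34-fold, or 1.22 ± 0.17 (standard error) on the log2 scale. Per transcript length the deposited FPKM values were 4.15, 4.43 and 5.69 against 9.80, 12.0 and 11.7. Of 12256 tested genes, 16 had a larger upward fold change. The fold change ranged from 1.11 to 1.35 on the log2 scale as single libraries were left out, which the plot of the *Lifr* difference under each setting shows.

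**Figure D1:**
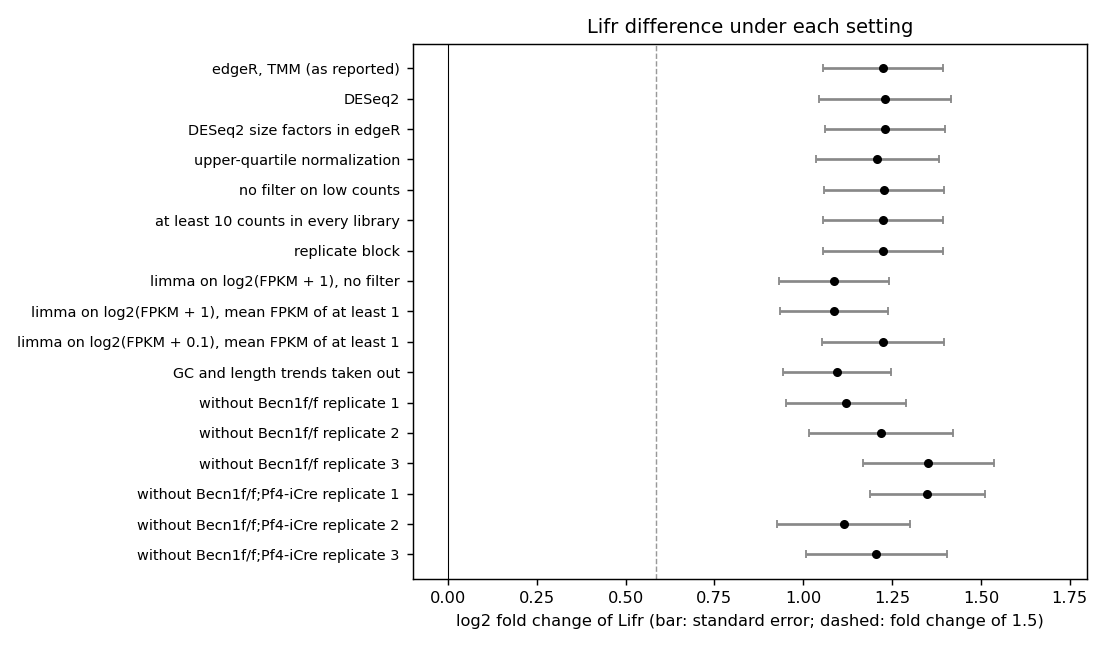
Log2 fold change of *Lifr* (horizontal axis, Becn1f/f;Pf4-iCre over Becn1f/f) with its standard error under each way of processing the data. All values lie between 1.09 and 1.35, to the right of the dashed line at a fold change of 1.5.

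The IL-6 binding chain and gp130 had smaller fold changes, and neither was called. *Il6ra* (gene ID 16194), the IL-6 binding chain, was measured at 146, 181 and 178 CPM in the Becn1f/f libraries and at 255, 245 and 227 CPM in those labelled Becn1f/f;Pf4-iCre. The genotypes did not overlap, and the log2 fold change was 0.52 with a 95% interval of 0.23 to 0.82 (Benjamini-Hochberg adjusted p = 0.33 over all tested genes in the quasi-likelihood test of edgeR). DESeq2, another count-based test, gave *Il6ra* a log2 fold change of 0.53 with an adjusted p of 0.054, so the adjusted p depended on the tool. An exact two-sided permutation test over the libraries gave p = 0.1, which is the smallest p that 3 libraries against 3 allow.

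*Il6st* (gene ID 16195), the shared gp130 chain, was measured at 97.9, 119 and 176 CPM in the Becn1f/f libraries and at 172, 186 and 182 CPM in those labelled Becn1f/f;Pf4-iCre. Becn1f/f library 3 reached the level of the other genotype, so the groups overlapped. The log2 fold change was 0.46 with a 95% interval of 0.05 to 0.87 (adjusted p = 0.74 from the edgeR test). Without that library it was 0.73, past the fold and unadjusted *P* thresholds but with an adjusted p of 0.19, so the call of *Il6st* depends on 1 library.

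*Osmr* (gene ID 18414), the dedicated oncostatin M chain, was all but absent. It had 1 count in each Becn1f/f library and 0, 0 and 1 counts in the libraries labelled Becn1f/f;Pf4-iCre. Every value was below 3 counts, which corresponds to 0.169 to 0.188 CPM per library, so it did not pass the expression filter and no fold change is given. Its neighbor *Lifr* on the same chromosome had 392 to 609 counts in the Becn1f/f libraries and 943 to 1307 in the others.

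**Figure D2:**
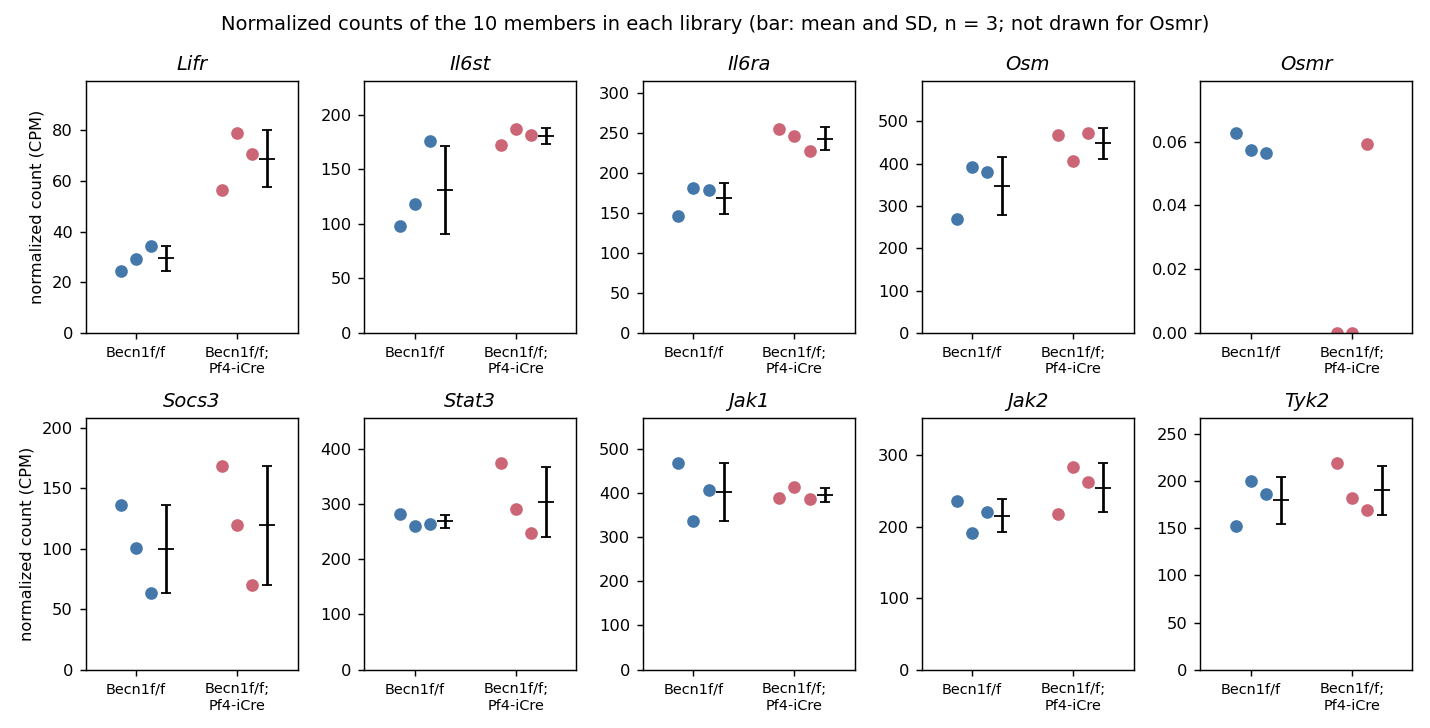
Normalized counts (CPM, vertical axes from 0) of the 10 genes in each library, with Becn1f/f in blue and Becn1f/f;Pf4-iCre in red. The red points lie above all blue points for *Lifr*, *Il6ra* and *Osm*, and *Osmr* has at most 1 count per library.

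*Osm* (gene ID 18413) encodes oncostatin M, a cytokine made by myeloid and T cells. It was measured at 268, 392 and 380 CPM in the Becn1f/f libraries and at 468, 406 and 472 CPM in those labelled Becn1f/f;Pf4-iCre. The genotypes were separated by a narrow gap between 392 and 406 CPM. The log2 fold change was 0.37 with a 95% interval of 0.02 to 0.73 (adjusted p = 0.76 from the edgeR test), and the exact two-sided permutation p was 0.1.

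The kinases differed little between the genotypes. *Jak1* (gene ID 16451), which associates with gp130, ranged from 335 to 466 CPM in the Becn1f/f libraries and from 385 to 414 in the others. Its log2 fold change was -0.02 (95% interval -0.34 to 0.30). *Jak2* (gene ID 16452), a kinase shared by many cytokine receptors, ranged from 191 to 236 and from 217 to 284 CPM, with a log2 fold change of 0.24 (95% interval -0.08 to 0.56). *Tyk2* (gene ID 54721) ranged from 152 to 200 and from 169 to 219 CPM, with a log2 fold change of 0.08 (95% interval -0.25 to 0.41). The adjusted p values were 0.99, 0.88 and 0.98 in the edgeR test, and the groups overlapped for each kinase. All 3 intervals lie within a fold change of 1.5 in either direction.

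*Stat3* (gene ID 20848) was steady in the Becn1f/f libraries, at 282, 259 and 264 CPM, and varied more in those labelled Becn1f/f;Pf4-iCre, at 373, 291 and 248 CPM. Its coefficient of variation was 4.41% and 21.0%, respectively. The log2 fold change was 0.18 (95% interval -0.17 to 0.52, adjusted p = 0.94 from the edgeR test). *Stat3* lies on chromosome 11, the chromosome of *Becn1*, with 19 genes of the deposited table between them in the RefSeq order of GRCm38.p6.

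*Socs3* (gene ID 12702), the inhibitor that binds gp130 and Janus kinases, varied most within a genotype. It was measured at 136, 100.4 and 63.4 CPM in the Becn1f/f libraries and at 168, 120 and 70.3 CPM in those labelled Becn1f/f;Pf4-iCre. The highest library exceeded the lowest 2.15-fold in the former and 2.39-fold in the latter, whereas the means were 100.04 ± 36.4 and 119 ± 48.9 CPM (SD, n = 3 each). The log2 fold change was 0.25 with a wide 95% interval of -0.40 to 0.91 (adjusted p = 0.97 from the edgeR test), and it was -0.077 without library 1 of the genotype labelled Becn1f/f;Pf4-iCre. The interval holds both 0 and an increase of more than 1.5-fold, so these libraries do not show whether *Socs3* differed.

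**Figure D3:**
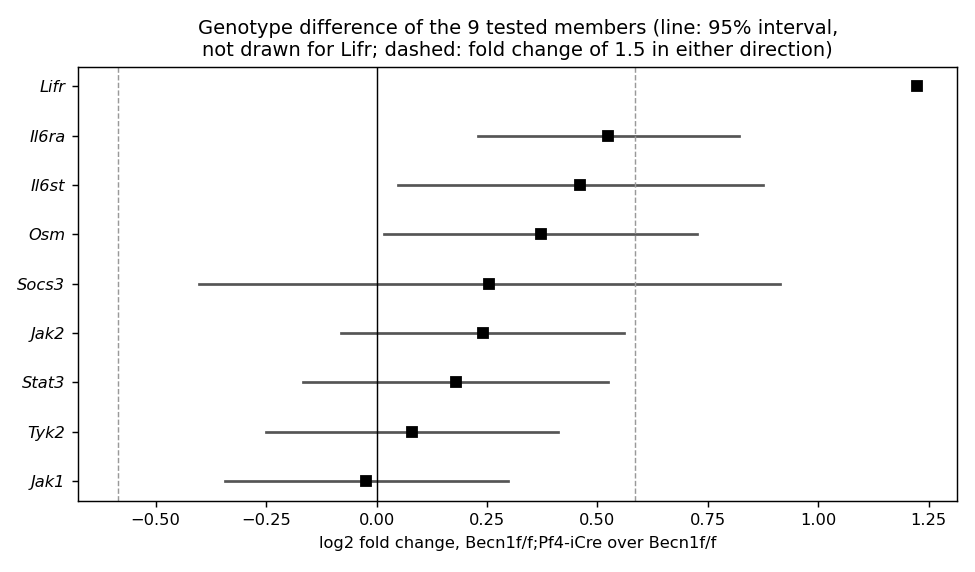
Log2 fold changes (horizontal axis) of the 9 tested genes of the group, with 95% intervals except for *Lifr*, for which the group was selected. The intervals of *Il6ra*, *Il6st* and *Osm* lie above 0 and reach past the dashed line at a fold change of 1.5, and those of *Socs3*, *Stat3*, *Jak1*, *Jak2* and *Tyk2* include 0.

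Of the 10 genes, 9 passed the expression filter. At a fold change of at least 1.5 and an unadjusted *P* under 0.05, the thresholds named in the study's methods, *Lifr* was the only one called, against 2.30% of all tested genes, and nothing is read from this count because *Lifr* was selected for that difference. The other 8 tested genes gave 0 calls at these thresholds and 0 adjusted p under 0.05, whereas 3 (*Il6ra*, *Il6st* and *Osm*) had an unadjusted *P* under 0.05 against 6.31% of all tested genes. DESeq2 likewise called none of the 8. An adjusted p under 0.05 was reached by 0.0408% of tested genes. Of the 9 tested genes, 3 were separated between the genotypes (*Lifr*, *Il6ra* and *Osm*), each higher in the libraries labelled Becn1f/f;Pf4-iCre, while 5.42% of all tested genes were separated in that direction and 10.6% in either. The median log2 fold change of the 9 was 0.25 beside -0.02 over all tested genes. The genes were listed with earlier results of these data known, so these counts describe the group and test nothing.

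Levels were compared between genes only per transcript length, in deposited FPKM. In the Becn1f/f libraries, *Osm* stood highest at 220 ± 48.1 FPKM (SD, n = 3), above 96.8% of tested genes. *Jak1* followed at 83.4 ± 11.8, then *Stat3* at 64.3 ± 1.38, *Il6ra* at 55.5 ± 7.92 and *Jak2* at 48.1 ± 4.22 FPKM (SD, n = 3 each). *Tyk2*, *Socs3* and *Il6st* came next at 41.0 ± 6.81, 40.8 ± 13.8 and 25.8 ± 8.70 FPKM (SD, n = 3 each). *Lifr* was ninth at 4.76 ± 0.820 FPKM (SD, n = 3), above only 29.5% of tested genes, whose median was 12.3 FPKM, and *Osmr* was listed at 0.01 in each library. The ranges of neighbors in this order overlapped from *Il6ra* down to *Il6st*, so the order within that stretch is not resolved, while *Osm*, *Jak1*, *Stat3*, *Lifr* and *Osmr* did not overlap the gene next below or above them in the order. In the libraries labelled Becn1f/f;Pf4-iCre the order by mean differed only in that *Il6ra* and *Stat3*, and *Socs3* and *Tyk2*, changed places. *Lifr* remained ninth, at 11.2 ± 1.21 FPKM (SD, n = 3).

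**Figure D4:**
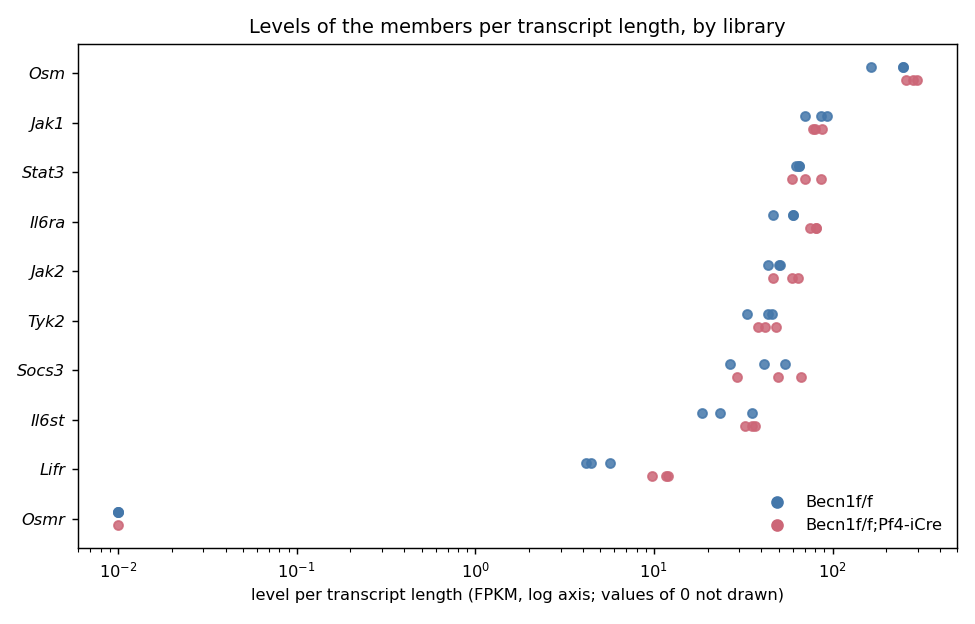
Deposited FPKM (horizontal log axis) of the 10 genes in each library, ordered by the Becn1f/f mean, with Becn1f/f in blue and Becn1f/f;Pf4-iCre in red. *Osm* lies at the top between 164 and 299 FPKM, *Lifr* lies second from the bottom between 4.15 and 12.0 FPKM, and *Osmr* is at 0.01 or 0.

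Ratios between chains were formed within each library. The ratio of *Il6st* to *Lifr* FPKM was 4.45, 5.29 and 6.22 in the Becn1f/f libraries and 3.32, 3.05 and 3.03 in the others. Thus gp130 transcript exceeded *Lifr* transcript per length in every library, with a smaller margin in the libraries labelled Becn1f/f;Pf4-iCre. The ratio of *Il6ra* to *Il6st* was 2.26 ± 0.479 and 2.26 ± 0.197 (SD, n = 3 each), with overlapping ranges. The ratio of the ligand *Osm* to *Lifr* was 39.6, 56.1 and 43.3 in the Becn1f/f libraries and 28.9, 21.6 and 25.5 in the others. Both ratios that involve *Lifr* carry the difference for which it was selected and are descriptions only.

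The wider pathway was described with lists that hold 108 genes in all, the group of 10 included, of which 99 were tested. At the same thresholds 4 were called higher and 1 lower in the libraries labelled Becn1f/f;Pf4-iCre, beside 1.36% of all tested genes called higher and 0.938% called lower, and the median log2 fold change of the 99 was 0.03. The 4 are *Lifr*, which was selected for its difference, and *Cblb*, *Il13ra1* and *Bcl6*. The lists were written with earlier results of these data known, so these counts are a description and test nothing. Among 7 tested gp130 ligands none was called by edgeR or DESeq2, and the median was 0.20. Of these, 1 (*Osm*) had an unadjusted *P* under 0.05, against 6.31% of all tested genes. *Il6*, the ligand of Il6ra, was measured at 240.0, 144 and 94.2 CPM against 239.6, 222 and 165, with overlap between the genotypes, and *Lif*, the ligand of Lifr, at 13.5, 15.2 and 10.2 against 20.6, 14.0 and 17.5 CPM. Neither passed the test, with adjusted p of 0.90 and 0.80 from edgeR.

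Of 6 tested gp130 family receptor chains, *Lifr* was the only one called. *Il11ra1*, the IL-11 binding chain, was lower in every library labelled Becn1f/f;Pf4-iCre, at 17.6, 23.0 and 19.2 CPM against 16.8, 15.4 and 15.8, a difference of -0.32 on the log2 scale with an adjusted p of 0.82 in the edgeR test. *Il27ra* and *Il31ra* had log2 fold changes of -0.08 and -0.02, and *Cntfr* was below the filter. No Janus kinase or STAT gene of 11 tested was called by edgeR or DESeq2, 0 had an unadjusted *P* under 0.05, and their log2 fold changes lay between -0.27 and 0.24. None of the 17 tested genes of the MAPK and PI3K arms was called by either tool. Of the 17, 2 (*Gab2* and *Pik3ca*) had an unadjusted *P* under 0.05, against 6.31% of all tested genes. Both were higher in every library labelled Becn1f/f;Pf4-iCre, as were 5.42% of all tested genes. *Gab2* was called higher without Becn1f/f replicate 3. *Akt1*, the highest of them, changed by -0.23 on the log2 scale without passing the test.

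Among 19 tested inhibitors, *Cblb*, an E3 ubiquitin ligase that restrains receptor and kinase signaling, rose from 50.6 ± 5.31 to 107 ± 10.2 CPM (SD, n = 3 each). This made 1.08 ± 0.14 (standard error) on the log2 scale, with an adjusted p of 0.019 in the edgeR test, and its place on the list was chosen with that result known. None of the other inhibitors, SOCS and PIAS proteins and phosphatases among them, was called by edgeR or DESeq2 or had an unadjusted *P* under 0.05. *Ptprc*, which encodes the phosphatase CD45 and was the highest of the list, had a log2 fold change of 0.18 (adjusted p = 0.95).

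Of 21 tested Stat3 target genes, 1 was called in each direction, and the median of the list was 0.02 on the log2 scale. *Bcl6*, a transcriptional repressor, was at 44.3, 46.4 and 45.6 CPM against 70.7, 74.5 and 59.4, a log2 fold change of 0.59, just past the fold threshold (adjusted p = 0.21 from the edgeR test). It was not called without Becn1f/f replicate 1 or without replicate 1 or 2 of the other genotype, nor with upper-quartile scaling, the replicate block or limma on FPKM. *Lrg1*, a secreted glycoprotein of neutrophils, was at 27.8, 27.8 and 46.3 CPM against 16.4, 21.95 and 23.1, a log2 fold change of -0.73 (adjusted p = 0.45 from the edgeR test). *Fos*, an immediate early gene and the highest of the list, was at 1705 ± 387 against 2528 ± 637 CPM (SD, n = 3 each) and was not called, with 0.57 on the log2 scale, just short of the fold threshold. It was called higher once GC and length trends were removed, and without Becn1f/f replicate 2 or 3 or replicate 1 or 2 of the other genotype. *Lrg1* was no longer called without Becn1f/f replicate 3, nor once GC and length trends were removed.

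Of 20 tested receptor chains outside the gp130 family, *Il13ra1*, a chain of the IL-4 and IL-13 receptor, was the only one called, at 43.2, 34.7 and 35.2 CPM against 65.1, 90.8 and 65.3. The difference was 0.97 ± 0.17 (standard error) on the log2 scale, with an adjusted p of 0.089 in the edgeR test. *Csf2rb*, the common beta chain and the highest of the list, had a log2 fold change of -0.05 and was not called.

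**Figure D5:**
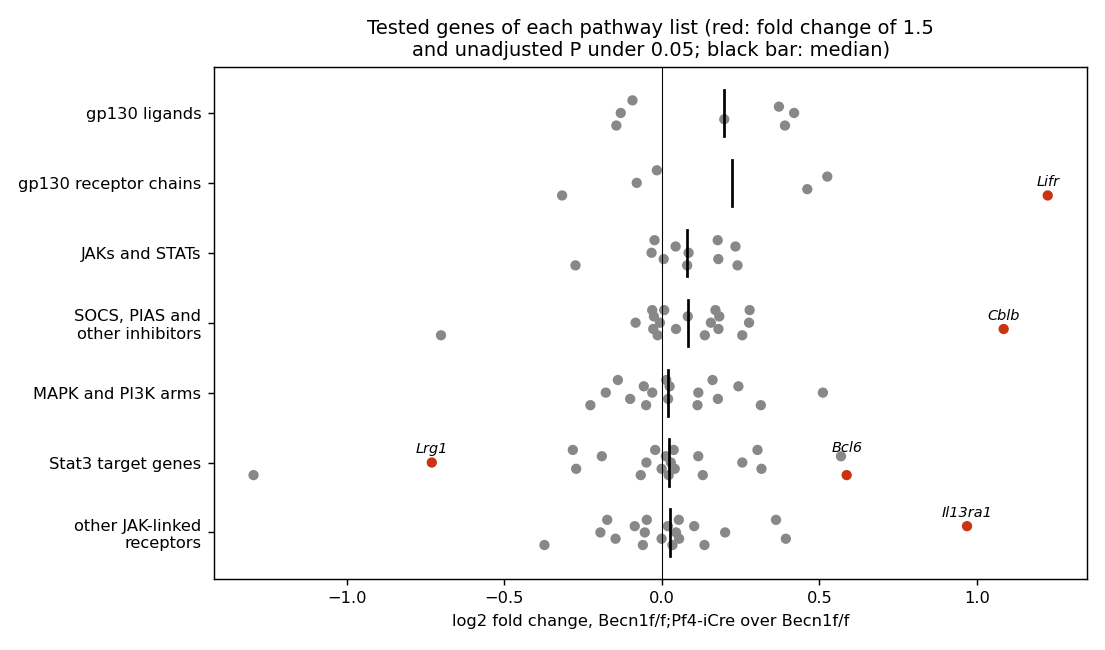
Log2 fold changes (horizontal axis) of the tested genes of each pathway list, with genes past the thresholds in red and the median of each list as a black bar. The medians lie between 0.02 and 0.22, and *Lifr*, *Cblb*, *Il13ra1* and *Bcl6* lie to the right with *Lrg1* to the left.

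Most erythroid and neutrophil markers were lower, and most macrophage markers higher, in the libraries labelled Becn1f/f;Pf4-iCre. Summed levels were apart between the genotypes only for the erythroid and macrophage markers, by narrow gaps, and overlapped for the other cell type lists. Of 13 tested erythroid markers, all 13 had a log2 fold change below 0, as had 54.5% of all tested genes, with a median of -0.64, and 6 were called lower, beside 0.938% of all tested genes. Their summed level lay at 650.5 to 977 CPM in the Becn1f/f libraries against 509 to 649.4 in the others. Of 14 tested neutrophil markers, 13 were below 0, with a median of -0.43, and 1 (*Mmp9*) was called lower, although its genotypes overlapped. An unadjusted *P* under 0.05 was reached by 6 of the 14, against 6.31% of all tested genes, and an adjusted p under 0.05 by 0. *Elane*, *Mpo*, *Prtn3* and *Lcn2*, 4 of the 14, were lower in every library labelled Becn1f/f;Pf4-iCre. Over all tested genes, 10.6% were separated in either direction. The neutrophil sums were 12285 to 17367 against 9547 to 12807 CPM.

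Of 13 tested macrophage markers, 11 had a log2 fold change above 0, as had 45.5% of all tested genes, with a median of 0.26. Among them, 3 (*Mrc1*, *Cd163* and *C1qc*) were called higher, beside 1.36% of all tested genes, at 1.26, 0.70 and 0.80. Their adjusted p were 0.057, 0.41 and 0.78 in the edgeR test. The more abundant *Csf1r*, *Cd68* and *Adgre1* overlapped between the genotypes, with log2 fold changes of 0.26, 0.14 and 0.0015. *Vcam1* and *Slc40a1* were below 0, at -0.20 and -0.39. The summed level of the 16 macrophage markers was 842 to 907 CPM in the Becn1f/f libraries and 909.5 to 1101 in the others. *Mrc1*, the mannose receptor, was at 9.78, 7.42 and 10.7 CPM against 20.9, 27.0 and 18.8. It was higher in every library labelled Becn1f/f;Pf4-iCre, as were 5.42% of all tested genes. A link between *Mrc1* and *Lifr* was not tested.

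Of 19 tested markers of MKs and platelets, 7 had a log2 fold change above 0 and 12 below, with a median of -0.10. *Pf4*, a platelet chemokine and the gene whose sequence drives iCre, was the only one called, at 3.76, 6.73 and 4.12 CPM against 3.06, 2.11 and 2.08, a log2 fold change of -1.01 (adjusted p = 0.42 from the edgeR test). *Gata1*, a transcription factor of MKs and erythroid cells, did not overlap between the genotypes either, at 21.9, 15.9 and 19.6 CPM against 13.8, 13.5 and 14.8, a log2 fold change of -0.44 (adjusted p = 0.60 from the edgeR test). In the other direction, *Selp* and *Fli1* were higher in every library labelled Becn1f/f;Pf4-iCre. Their log2 fold changes were 0.38 and 0.18 (adjusted p = 0.80 and 0.90 from the edgeR test). The sum of the list, of which *Thbs1* makes up most, was 2944 to 5446 against 2914 to 4881 CPM.

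Markers of stromal cells, which are known to express *Lifr*, summed to 214 to 256 against 216 to 263 CPM, and none of 6 tested was called by edgeR or had an unadjusted *P* under 0.05. *Runx2*, at 164 against 168 CPM on average, made up most of this sum, followed by *Angpt1* at 45.1 against 44.4 and *Pdgfrb* at 11.7 against 12.3. The sum therefore says little about the rarer markers. *Col1a1* was at 2.38, 8.17 and 3.05 CPM against 1.38, 11.2 and 1.37. *Col1a2* was at 0.627, 6.44 and 1.58 CPM against 0.839, 7.48 and 0.831, so both were highest in library 2 of each genotype. *Lepr* averaged 0.178 against 0.260 CPM, near the level of 3 counts, with *Pdgfra* and *Dcn* lower still. The endothelial markers summed to 125 to 147 against 117 to 129 CPM, the B-cell markers to 169 to 290 against 167 to 225, and the T and NK cell markers to 55.6 to 71.7 against 44.2 to 60.0. The part of any of these lists in the difference of *Lifr* was not tested.

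The genes whose profile over the 6 libraries was most like that of *Lifr*, among 9894 genes with a mean of at least 5 CPM, were *Emsy*, *Naip6*, *Atg4c*, *Klra2* and *Gvin1*, with Pearson correlations of log2 CPM of 0.99 each. These values describe 6 points that share the genotype split and are the highest among all genes compared. *Klra2*, a receptor of the Ly49 family, was at 20.3, 21.0 and 23.8 CPM against 35.3, 53.1 and 44.0. *Atg4c*, a protease that processes Atg8 proteins, was at 12.6, 13.7 and 14.2 against 18.5, 23.4 and 20.8 CPM. *Naip6*, *Klra2* and *Gvin1* have close paralogs, so their counts are uncertain. By deviations from the genotype means, the genes most like *Lifr* included *Gvin1*, *Msl1*, *Trit1* and *Ube4a*, also at 0.99 each. *Gvin1*, a large interferon-inducible GTPase, was in both sets, whereas *Msl1* had a log2 fold change of -0.11 and a correlation of -0.26 over the 6 libraries. Of the group itself, the correlation with *Lifr* within genotypes was 0.78 for *Il6st*, 0.43 for *Jak2*, 0.37 for *Il6ra* and 0.35 for *Osm*. It was -0.76 for *Socs3*, -0.63 for *Stat3*, -0.18 for *Jak1* and -0.03 for *Tyk2*. Each value rests on 6 points and is a description only.

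Genes next to *Lifr* were looked up in the RefSeq order of GRCm38.p6. Within 500 kb, the other genes of the deposited table were *Fyb*, *Rictor* and *Osmr*, all on one side. *Fyb*, an adaptor of hematopoietic cells, was at 316, 240.2 and 299 CPM against 330, 375 and 323, with a log2 fold change of 0.26 (adjusted p = 0.88 from the edgeR test). *Rictor*, a subunit of an mTOR complex, was at 106 against 105 CPM on average, with a log2 fold change of -0.01. Neither neighbor passed the test.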

How the data were processed

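RNA of bone marrow MKs was sequenced in 6 libraries, 3 per genotype, grouped and numbered as in the labels. The authors filtered the reads and mapped them with HISAT (the labels also name Bowtie2 and GRCm39, without versions), and the counting tool is not given in the sources used here. The authors deposited unnormalized estimated counts, of which 10.3% to 11.3% per library are not whole numbers, and FPKM values, which the authors scaled for transcript length and library size. Another 16 columns of per-sample values were not used, 4 of them of a library that matches none of the samples, nor were 8 columns of group means.

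Estimated counts were rounded, filtered with edgeR's expression filter (12256 of 16579 genes kept), normalized with TMM factors and compared between genotypes by the quasi-likelihood test of edgeR 4.0.16 (R 4.3.3), with Benjamini-Hochberg adjustment over all tested genes. Standard errors were taken from the fold change and its F statistic, and intervals and counts cover no error beyond these libraries. The genes, lists and naming rule (the 10 genes, list members past the thresholds, the highest gene of each list, the 5 genes most like *Lifr* by each measure, and genes within 500 kb of it) were chosen with earlier results of these data known. *Il11ra1*, *Il27ra*, *Il31ra*, *Il6*, *Lif*, *Cntfr*, *Gab2*, *Pik3ca* and single cell type markers were named after their values were seen. A gene that the naming rule selects by its likeness to *Lifr* is not reported here. The alternatives comprised DESeq2 1.42.0, its size factors within edgeR, upper-quartile scaling, other filters, a replicate block, limma 3.58.1 on log2(FPKM + 1) or log2(FPKM + 0.1), removal of GC and length trends (11953 genes matched to GENCODE M21) and leaving out each library. The steps were tested on simulated data. The labels do not say whether replicates are separate mice, so p-values measure only the spread between these libraries.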

Additional observations from a re-analysis of the deposited data

How the results depend on the processing

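The log2 fold change of *Lifr* kept its direction and moved by less than the spread between replicates under all 16 alternatives. It was 1.09 with limma on log2(FPKM + 1), a scale that understates changes of low genes, 1.10 with GC and length trends taken out, 1.23 with DESeq2, and 1.11 to 1.35 when each library was left out. Across genes, the genotype difference had a Spearman correlation of -0.35 with GC content (genes are no independent replicates), and -0.0027 once the trends were removed. The number of the 10 genes called was 1 under every alternative except without Becn1f/f replicate 3, so it ranged from 1 to 2 when each library was left out. The number of pathway genes called higher, 4, was 3 to 5 under the other settings and 4 to 7 when each library was left out, the 7 being without Becn1f/f replicate 3. The number called lower, 1, was 0 with GC and length trends taken out and 1 to 2 when each library was left out, the 2 being without Becn1f/f replicate 3. *Jak1* turned to 0.10 and *Tyk2* to -0.02 without Becn1f/f replicate 1, and *Tyk2* to -0.033 and *Socs3* to -0.077 without Becn1f/f;Pf4-iCre replicate 1, none of them called. Over the libraries left out, *Socs3* ranged from -0.077 to 0.55, *Jak1* from -0.14 to 0.10 and *Tyk2* from -0.033 to 0.17. *Lifr* stayed ninth of 10 by level in all 4 alternatives. The number of genes called over the whole table was 121 with limma on log2(FPKM + 1) unfiltered and 137 when genes needed a mean FPKM of 1, against 282. The causes were not tested.

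The genotypes share replicate numbers, but across genes same-numbered libraries did not deviate together (correlations of 0.06, -0.31 and 0.21). Deviations from means of 3 libraries cannot exclude pairing, so whether the numbers pair the libraries was not settled. *Socs3* fell from library 1 to library 3 in both genotypes. With a replicate block, the standard error of its log2 fold change went from 0.30 to 0.16, whereas that of *Il6ra* went from 0.14 to 0.17. With the replicate block, *Lifr* had a log2 fold change of 1.22, 1 of the 10 genes was called, 3 pathway genes were called higher and 1 lower, and 296 genes were called over the whole table.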
